A study of Mus musculus with 12 samples.

Results

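Levels of 10 cytokine receptor chains were described in mouse bone marrow-derived macrophages. They were taken by gene symbol, by way of the Ensembl identifier, from a deposited table of 55891 genes, and all 10 were found and passed the low-count filter that left 13525 genes for testing. The chains were Csf1r, Il4ra, Il13ra1, Il2rg, Ifngr1, Ifngr2, Ifnar1, Ifnar2, Il10ra and Il10rb. RNA was sequenced from cells of mice without Ptprz1 (KO), the gene of a receptor-type tyrosine phosphatase, and from wild-type cells (WT). Cells of every group had been grown from marrow for 6 days with M-CSF at 10 ng/mL. They were then given 100 ng/mL LPS with 10 ng/mL IFNγ for 24 h (LPS+IFNγ), given 20 ng/mL IL-4 for 24 h (IL-4), or left as controls. Each of the 6 groups of genotype and treatment held 2 libraries, 12 in all. The labels name the same strain, B6.129-Ptprz1tm1Nmo, for KO and WT samples, although WT titles start with B6. Nothing in the labels says whether the libraries of a group came from separate mice or cultures, so p-values measure the spread between these libraries, which may be technical.

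Cytokine receptors signal when a ligand brings their chains together. Csf1r is a receptor tyrosine kinase that binds M-CSF and IL-34, and macrophages depend on it to survive. The other chains have no kinase of their own and work through bound Janus kinases and STAT factors. Il4ra binds IL-4 and pairs with the common gamma chain, Il2rg, or with Il13ra1, which also lets the pair respond to IL-13. Ifngr1 and Ifngr2 form the receptor for IFNγ, Ifnar1 and Ifnar2 form the receptor for type I interferons, and Il10ra and Il10rb form the receptor for IL-10. The cultures had therefore been given a ligand of Csf1r in all groups, of the IFNγ receptor in LPS+IFNγ groups and of the IL-4 receptor in IL-4 groups.

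The members lie on 6 chromosomes in GRCm38 (GENCODE release M21), a build other than the GRCm39 of the submitters' processing notes. Of these, Ifnar2, Il10rb, Ifnar1 and Ifngr2, 4 of the 10, stand in that order on the plus strand within 192.8 kb of chromosome 16 (chr16:91372783-91565623), and Il10rb starts 574 bases after Ifnar2 ends. Il13ra1 (chrX:36112110-36171259, plus strand) and Il2rg (chrX:101264378-101268255, minus strand) are X-linked. Il4ra lies on chromosome 7 (chr7:125552120-125579474, plus strand) and Ifngr1 on chromosome 10 (chr10:19591949-19610229, plus strand). Il10ra lies on chromosome 9 (chr9:45253837-45269149, minus strand). RefSeq promoter windows (GRCm38.p6) were matched for 7 of the 10 members, and those of Csf1r, Il10ra and Il10rb were not among them. The stretches upstream of the start are shown for Il4ra and Il2rg, which rose most with LPS+IFNγ, for Ifngr1 and Ifngr2, partner chains that moved in opposite directions, and for Ifnar2, which holds a STAT-type match. Bases from the first annotated exon onward are not shown, which leaves 99 bases for Il4ra and 250 for each of the others. The search covered the whole window of Il4ra as well. Capitals mark the matches to the motifs searched. They are chr7:125552021-125552119 (plus), chrX:101268256-101268505 (minus), chr10:19591699-19591948 (plus), chr16:91546809-91547058 (plus) and chr16:91372533-91372782 (plus), each read from 5′ to 3′ on the gene's strand.
Il4ra: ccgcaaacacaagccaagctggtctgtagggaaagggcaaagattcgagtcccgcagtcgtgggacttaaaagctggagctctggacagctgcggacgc
Il2rg: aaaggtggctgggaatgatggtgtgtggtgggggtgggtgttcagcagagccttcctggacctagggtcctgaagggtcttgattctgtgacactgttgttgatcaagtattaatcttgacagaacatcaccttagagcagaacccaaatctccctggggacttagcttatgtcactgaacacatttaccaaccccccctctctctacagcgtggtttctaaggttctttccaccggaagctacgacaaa
Ifngr1: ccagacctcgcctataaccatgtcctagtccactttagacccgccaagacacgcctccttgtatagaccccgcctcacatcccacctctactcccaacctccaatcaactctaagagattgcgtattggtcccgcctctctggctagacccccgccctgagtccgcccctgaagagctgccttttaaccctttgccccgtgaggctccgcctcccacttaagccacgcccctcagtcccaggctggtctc
Ifngr2: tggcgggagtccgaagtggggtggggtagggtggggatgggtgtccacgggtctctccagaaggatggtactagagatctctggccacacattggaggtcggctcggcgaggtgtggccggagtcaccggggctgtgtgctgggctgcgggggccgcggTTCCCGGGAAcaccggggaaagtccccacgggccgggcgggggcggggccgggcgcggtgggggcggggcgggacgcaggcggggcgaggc
Ifnar2: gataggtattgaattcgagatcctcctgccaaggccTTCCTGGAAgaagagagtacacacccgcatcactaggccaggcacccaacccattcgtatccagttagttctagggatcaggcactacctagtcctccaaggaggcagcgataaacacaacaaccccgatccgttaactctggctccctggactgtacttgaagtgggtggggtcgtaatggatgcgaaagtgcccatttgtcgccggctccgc

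Csf1r lies on the plus strand of chromosome 18 (chr18:61100598-61132149). Both strands of the matched windows, from 250 bases before to 50 after the start, were searched for 4 motifs. TTCNNNGAA, a STAT-type palindrome, was found in the windows of Ifnar2, as TTCCTGGAA, and Ifnar1, as TTCACGGAA across the start. The same palindrome with 1 more base in the middle was found in the window of Ifngr2, as TTCCCGGGAA. GAGGAA, a PU.1-type core, was found in reverse in the window of Ifnar1, as TTCCTC, and the interferon-stimulated response element core, a repeat of GAAA with 2 free bases between, was found in none of the 7. No match overlapped another. Over the 32851 promoter windows of the table, the shares holding these motifs were 8.3%, 6.95%, 28.3% and 3.44% in the order given. The windows of Il4ra, Il13ra1, Il2rg and Ifngr1 held none of the 4, which says only that these letters are not in those windows.

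Library totals were between 13665607 and 19555600 estimated counts. Ptprz1 itself had 0 counts in 11 of the 12 libraries and 7 in the other, so its RNA does not check the genotype labels. Xist, transcribed from the inactive X of female cells, had 232 to 618 CPM (counts scaled by library size) in WT libraries and 0 counts in KO libraries, so sex and genotype cannot be told apart. All 8 macrophage markers were detected in every library. They include the member Csf1r, which gave 1237 to 2166 CPM of each sum. The summed level of the 8 was 18144 to 20865 CPM in KO and 17863 to 18982 CPM in WT libraries after LPS+IFNγ. After IL-4 the sum was 8991 to 10065 CPM in KO and 8138 to 8485 CPM in WT libraries, and in controls it was 14400 to 18780 CPM in KO and 15038 to 15080 CPM in WT libraries. The 10 fibroblast and endothelial markers summed to 293 to 1341 CPM in KO libraries and to 61.7 to 342 CPM in WT libraries. Neutrophil markers summed to 221 CPM in KO LPS+IFNγ library 2 and to at most 39.3 CPM in the others. S100a8 alone gave 220 CPM of the sum in KO LPS+IFNγ library 2, where 5 of the 8 neutrophil markers had 0 counts. Ly6g had 0 counts in all 12 libraries, so the sum does not show neutrophils there. The marker lists of mast, dendritic, T or NK and B cells summed to at most 6.36 CPM each. CPM values were scaled by TMM factors, which were 0.756 to 0.833 after LPS+IFNγ and 1.09 to 1.16 elsewhere. Genes that overlap a member and were in the table had few counts beside it, with 427 to 779 for Hmgxb3, antisense to Csf1r (at least 14157), and 0 to 53 for Gm21970, which shares exons with Ifnar2 and Il10rb. Gm20489, which overlaps Il2rg, was not analysed here. In bulk RNA of this kind, fewer cells of a type and less RNA per cell cannot be told apart.

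Levels of different genes were ordered per length, as CPM per kb of annotated exon, over the 4 libraries of a treatment. Csf1r came first in every treatment, with 298 ± 43.7 CPM per kb after LPS+IFNγ, 256 ± 29.8 after IL-4 and 321 ± 44.9 in controls (SD, n = 4 each). After LPS+IFNγ, Il2rg was the second at 215 ± 26.9 and Il4ra the third at 131 ± 13.2 CPM per kb, and the ranges of these 3 genes did not overlap. The next 5, from Il10rb at 70.9 ± 2.53 to Ifnar1 at 54.6 ± 5.28 CPM per kb, each overlapped their neighbour in the order. In controls Ifngr1 (65.2 ± 3.72) and Il10rb (64.5 ± 4.28 CPM per kb) followed Csf1r with overlapping ranges, while Il2rg (18.1 ± 6.42) and Il4ra (13.2 ± 2.39 CPM per kb) overlapped each other in places 8 and 9. After IL-4, Il10rb (55.2 ± 3.49) and Ifngr1 (54.7 ± 2.22 CPM per kb) overlapped in places 2 and 3, and Il4ra was in place 9 at 7.18 ± 0.246 CPM per kb. Il13ra1 was the lowest in all 3 treatments, with 25.2 ± 3.84 CPM per kb after LPS+IFNγ, 2.08 ± 0.490 after IL-4 and 3.50 ± 0.414 in controls. After LPS+IFNγ its range overlapped that of Ifngr1.

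**Figure D1:**
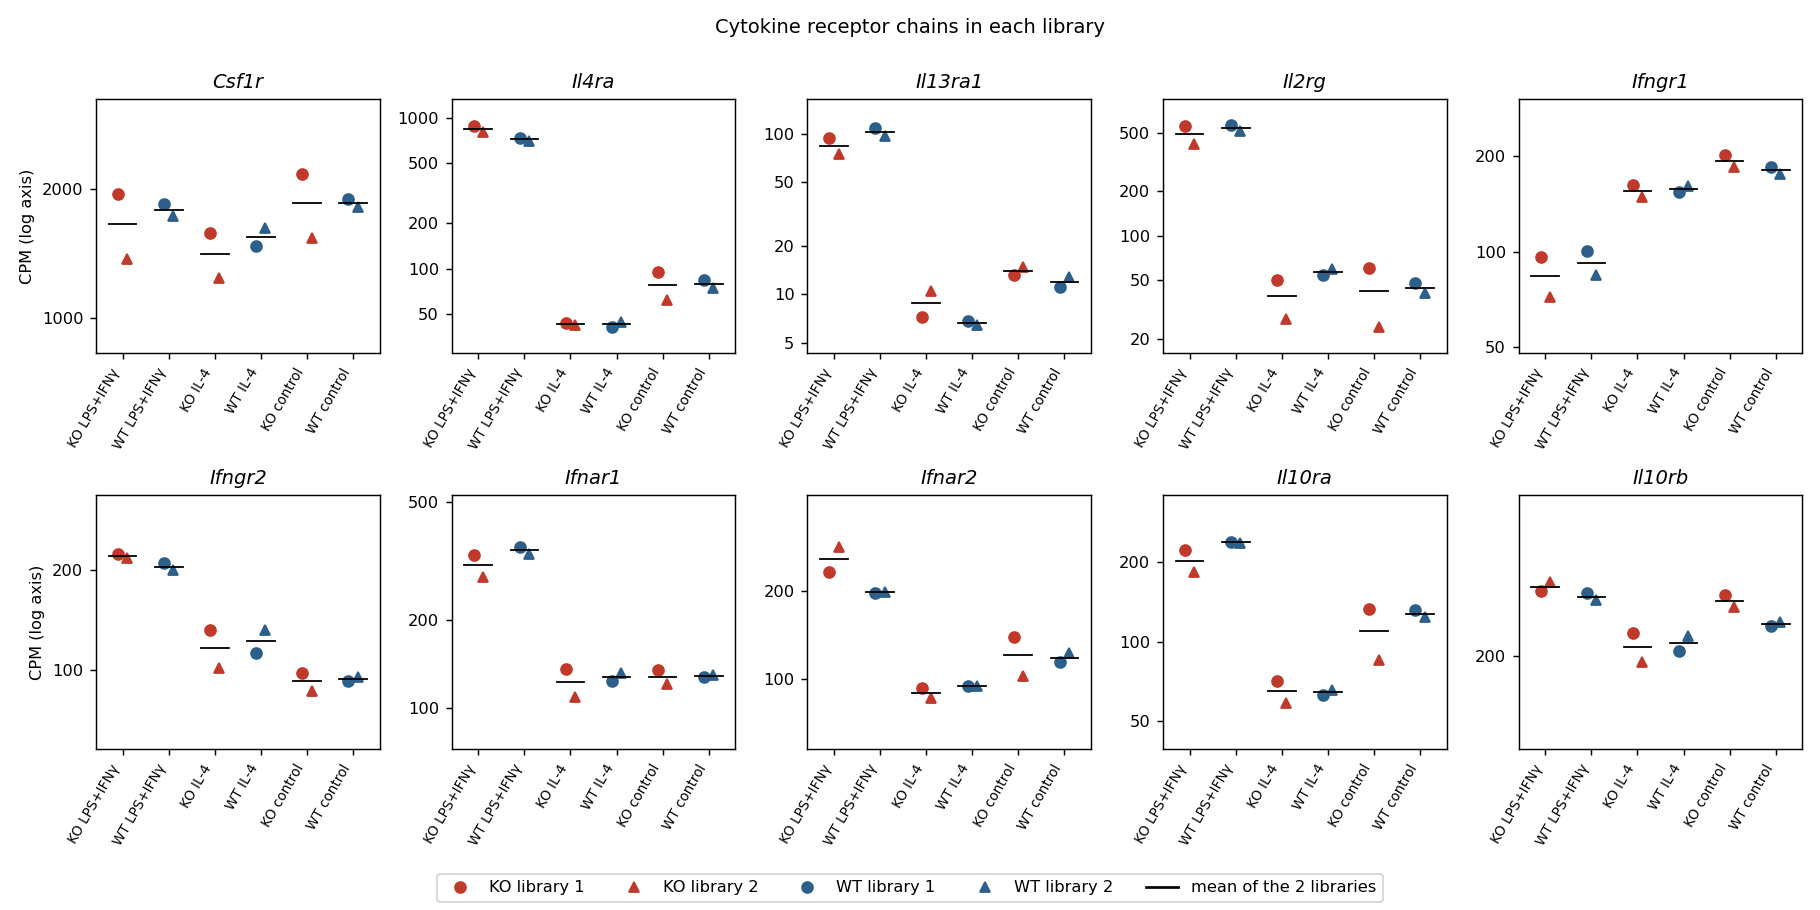
TMM-scaled CPM (log axis, 1 panel a gene) of the 10 receptor chains in each library, by group of genotype and treatment, with circles for library 1, triangles for library 2 and a line at the mean of the 2. Il4ra sits at 704 to 882 CPM after LPS+IFNγ and at 41.4 to 95.5 CPM elsewhere, and Csf1r stays between 1237 and 2166 CPM.

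LPS+IFNγ against control was read within each genotype. In both KO and WT cells 7 members rose, 1 fell (Ifngr1) and 2 (Csf1r and Il10rb) did not pass the test, at an adjusted p below 0.05 in edgeR's quasi-likelihood test. Over all genes tested, 53.3% were called in KO and 54.3% in WT cells, so a call by itself is common here. Called higher were 27.2% in KO, 27.4% in WT and 23.7% in both, and called lower were 26.1% in KO, 27% in WT and 22.6% in both. The median log2 fold change of the members was 1.17 in KO and 1.01 in WT cells, beside -0.01 in KO and -0.05 in WT cells over all genes tested. Per gene, 8.33% of all genes in KO cells changed more than Il4ra did, and 7.90% more than Il2rg did. In WT cells these shares were 9.94% for Il4ra and 8.18% for Il2rg.

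The chains of the IL-4 receptor moved most. Il4ra, the ligand-binding chain, had 882 and 809 CPM in KO and 739 and 704 CPM in WT libraries after LPS+IFNγ, against 95.5 and 61.7 CPM in KO and 84.1 and 74.8 CPM in WT controls. Every LPS+IFNγ library was above every control library, and Il4ra rose 10.7-fold in KO and 9.08-fold in WT cells (log2 3.43 ± 0.19 and 3.18 ± 0.19, SE, edgeR adjusted p = 1.24e-06 and 1.55e-06). Il2rg, the gamma chain that IL-2, IL-7, IL-15 and other receptors also use, had 552 and 421 CPM in KO and 563 and 516 CPM in WT libraries after LPS+IFNγ. Its controls had 60.6 and 23.9 CPM in KO and 47.8 and 40.6 CPM in WT libraries. It rose 11.5-fold in KO and 12.2-fold in WT cells (log2 3.52 ± 0.43 and 3.61 ± 0.43, SE, edgeR adjusted p = 0.000101 and 8.59e-05) and had the largest SE of the members. Il13ra1, the partner in the receptor that also binds IL-13, had 94.0 and 74.7 CPM in KO and 109 and 96.2 CPM in WT libraries after LPS+IFNγ, against 13.3 and 14.8 CPM in KO and 11.1 and 12.9 CPM in WT controls. It rose 6.01-fold in KO and 8.58-fold in WT cells (edgeR adjusted p = 4.56e-06 and 1.71e-06). For all 3 chains, every LPS+IFNγ library was above every control library.

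The chains of the IFNγ receptor moved apart, and both chains of the type I interferon receptor rose. Ifngr1, which binds IFNγ, had 95.9 and 71.9 CPM in KO and 100.3 and 84.4 CPM in WT libraries after LPS+IFNγ, against 200.2 and 183 CPM in KO and 185 and 175 CPM in WT controls. It was the 1 member that fell, 2.28-fold in KO and 1.95-fold in WT cells (edgeR adjusted p = 0.000111 and 0.000394), and its groups did not overlap. Ifngr2, the signalling partner of Ifngr1, had 224 and 218 CPM in KO and 210 and 200 CPM in WT libraries after LPS+IFNγ, against 98.1 and 86.8 CPM in KO and 93.0 and 95.6 CPM in WT controls. It rose 2.39-fold in KO and 2.17-fold in WT cells (edgeR adjusted p = 5.49e-05 and 0.000112), so the partner chains of the IFNγ receptor moved in opposite directions. Ifnar1 had 332 and 279 CPM in KO and 352 and 334 CPM in WT libraries after LPS+IFNγ, against 135 and 121 CPM in KO and 127 and 129 CPM in WT controls. Ifnar2, the chain with the higher affinity for type I interferons, had 233 and 285 CPM in KO and 197 and 200 CPM in WT libraries, against 139 and 103 CPM in KO and 114 and 123 CPM in WT controls. Both rose, Ifnar1 by 2.39-fold in KO and 2.67-fold in WT cells and Ifnar2 by 2.13-fold in KO and 1.67-fold in WT cells (edgeR adjusted p at most 0.00232). With library totals as the only scaling, the rise of Ifnar2 in WT cells came to 0.24 on the log2 scale and was no longer called (edgeR adjusted p = 0.166).

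Of the IL-10 receptor, Il10ra, which binds IL-10, had 222 and 184 CPM in KO and 240 and 236 CPM in WT libraries after LPS+IFNγ, against 134 and 85.5 CPM in KO and 132 and 124 CPM in WT controls. It rose 1.85-fold in KO and 1.86-fold in WT cells (edgeR adjusted p = 0.00348 and 0.00324). With library totals alone its log2 fold changes were 0.40 in both genotypes and were not called (edgeR adjusted p = 0.115 in KO and 0.112 in WT cells), and a fit to the KO libraries of the contrast alone gave 0.86 (edgeR adjusted p = 0.0545). Il10rb, which the IL-10 receptor shares with receptors of IL-22 and type III interferons, had 270.2 and 283 CPM in KO and 269 and 259 CPM in WT libraries, against 266 and 252 CPM in KO and 230.1 and 235 CPM in WT controls. Its log2 fold change was 0.10 in KO cells (95% interval -0.13 to 0.32) and 0.18 in WT cells (-0.05 to 0.41). Under library totals alone it was called lower, at -0.40 in KO and -0.31 in WT cells (edgeR adjusted p = 0.00707 and 0.023). That scaling moved the median of all genes to -0.51 in KO and -0.55 in WT cells, so Il10rb was above the median gene under both scalings.

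Csf1r had 1951 and 1370 CPM in KO and 1844 and 1728 CPM in WT libraries after LPS+IFNγ, against 2166 and 1536 CPM in KO and 1891 and 1812 CPM in WT controls. The groups overlapped in both genotypes, and the log2 fold change was -0.16 in KO cells (95% interval -0.64 to 0.33) and -0.05 in WT cells (-0.54 to 0.43). With library totals alone it was called lower in KO cells, at -0.65 (edgeR adjusted p = 0.0333), where the median of all genes was -0.51. The KO libraries of each treatment lay farther apart than the KO fold change under TMM scaling.

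**Figure D2:**
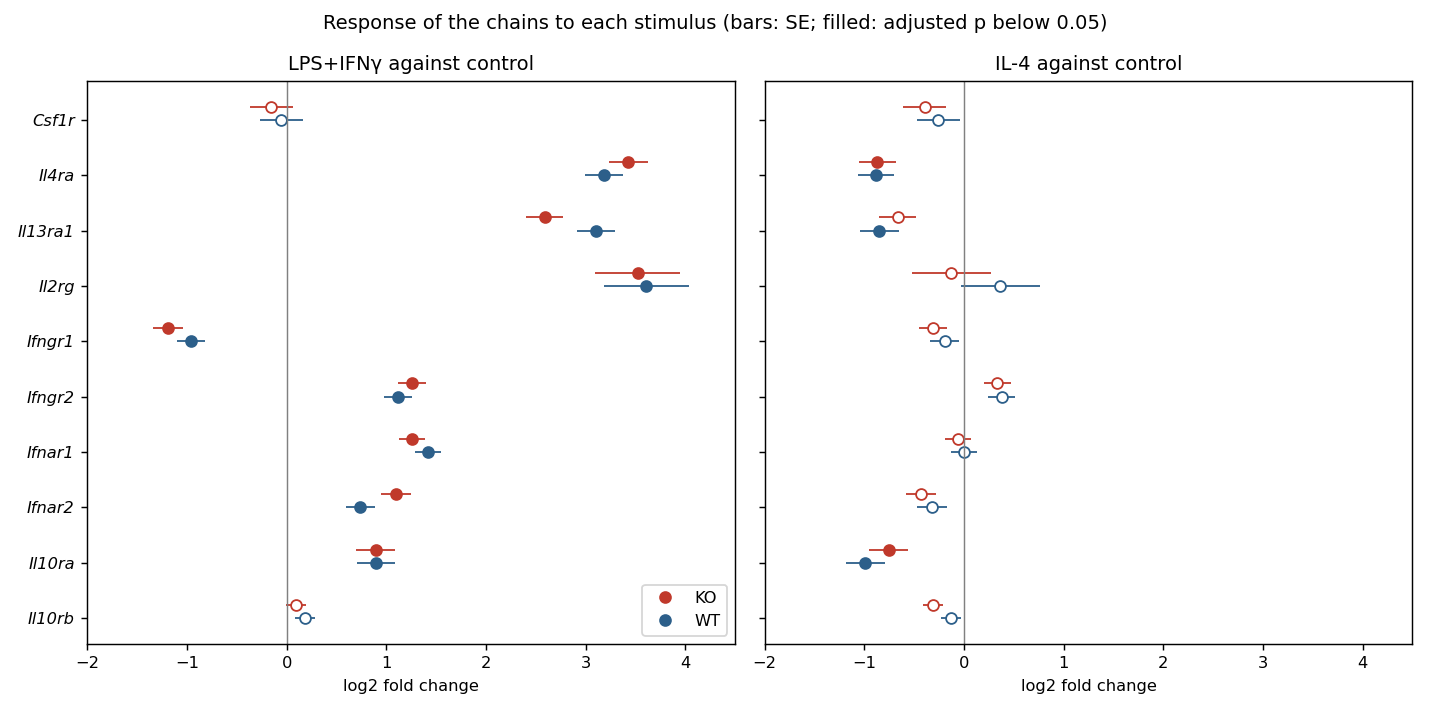
Log2 fold change of each chain after LPS+IFNγ (left) and after IL-4 (right), each against the same control libraries, for KO above WT, with bars of 1 SE and filled points at an edgeR adjusted p below 0.05. Il4ra, Il13ra1 and Il2rg lie between 2.59 and 3.61 after LPS+IFNγ, Ifngr1 lies below 0, and Il4ra, Il13ra1 and Il10ra lie at -0.67 or lower after IL-4.

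IL-4 against control used the same control libraries, and the members that passed went down. In KO cells 0 members rose and 2 fell, Il4ra and Il10ra, where 6.86% of all genes were called and 3.34% were called lower. In WT cells 0 rose and 3 fell, Il4ra, Il13ra1 and Il10ra, where 9.04% of all genes were called and 4.12% were called lower. Of all genes, 2.19% were called lower in both genotypes, as Il4ra and Il10ra were. Il4ra had 43.7 and 42.4 CPM in KO and 41.4 and 44.8 CPM in WT libraries after IL-4, all below the lowest control library at 61.7 CPM. The receptor chain for the cytokine in the medium was thus lower, 1.83-fold in KO and 1.84-fold in WT cells (edgeR adjusted p = 0.0238 and 0.0193). Il10ra had 70.9 and 58.7 CPM in KO and 63.0 and 65.7 CPM in WT libraries after IL-4, below every control library. It fell 1.69-fold in KO and 1.99-fold in WT cells (edgeR adjusted p = 0.048 and 0.0161). Il13ra1 had 7.21 and 10.4 CPM in KO and 6.86 and 6.43 CPM in WT libraries after IL-4. It fell 1.80-fold in WT cells (edgeR adjusted p = 0.0275), while in KO cells its log2 fold change of -0.67 did not pass (edgeR adjusted p = 0.0656) and passed in 4 of 24 alternatives.

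The calls within a genotype compare 2 libraries with 2, but their p-values use a spread estimated from all 12 libraries, WT and KO together. The KO call of Il10ra was thus also lost when any single WT library was left out (edgeR adjusted p 0.0789 to 0.0871). Il4ra was called in 20 of 24 alternatives in each genotype, and Il10ra in 13 of 24 in KO and 20 of 24 in WT cells. Leaving out either library of WT IL-4 or of WT control ended all 3 WT calls, and leaving out either KO IL-4 library or KO control library 1 ended both KO calls. Without KO control library 1 the KO values were -0.52 for Il4ra and -0.40 for Il10ra on the log2 scale. The genotypes were therefore also averaged, 4 libraries against 4, a contrast added after the values within each genotype had been seen. In it 21.5% of all genes were called, 10.9% higher and 10.6% lower, and among the members 4 fell and 1 rose. Il4ra fell by 0.88, Il10ra by 0.87 and Il13ra1 by 0.76 on the log2 scale (edgeR adjusted p = 0.00182, 0.00255 and 0.00469), and each of these 3 was called under all 24 alternatives of the averaged contrast. Ifnar2 fell by 0.38 and Ifngr2 rose by 0.36 (edgeR adjusted p = 0.0333 and 0.0288), and both calls were lost when single libraries were left out.

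The other members had values nearer to control. After IL-4, Csf1r had 1578 and 1237 CPM in KO and 1472 and 1622 CPM in WT libraries, Ifngr1 161 and 148 CPM in KO and 153 and 161 CPM in WT libraries, and Il10rb 222 and 194 CPM in KO and 204 and 220 CPM in WT libraries. Their averaged log2 fold changes were -0.33 (95% interval -0.67 to 0.02), -0.25 (-0.48 to -0.02) and -0.22 (-0.38 to -0.06), with edgeR adjusted p of 0.159, 0.108 and 0.054. In the same order, these 3 members passed in 3, 4 and 10 of 24 alternatives. Ifnar1, at 136 and 109 CPM in KO and 124 and 132 CPM in WT libraries, gave -0.03 (-0.24 to 0.18). Il2rg, at 50.4 and 27.1 CPM in KO and 54.2 and 59.8 CPM in WT libraries, gave 0.12 (-0.51 to 0.74), the widest interval among the members.

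LPS+IFNγ was set directly against IL-4 as well, which shares its libraries with the comparisons above. In each genotype 8 members were higher, 1 (Ifngr1) was lower and Csf1r did not pass, where 54.9% of all genes were called in KO and 56.2% in WT cells. Of all genes 26.7% were called higher and 28.1% lower in KO cells, and 28.1% higher and 28.1% lower in WT cells. The gap was widest for Il4ra, 19.6-fold in KO and 16.7-fold in WT cells (edgeR adjusted p = 4.8e-07 and 5.48e-07). Il13ra1 was 9.55-fold higher in KO and 15.4-fold higher in WT cells, and Il2rg 12.6-fold and 9.46-fold. Il10ra was 3.14-fold higher in KO and 3.70-fold higher in WT cells, wider than its gap to control. Il10rb was higher by 0.41 in KO and 0.32 in WT cells on the log2 scale (edgeR adjusted p = 0.00721 and 0.0239), but with library totals alone it was -0.07 in KO and -0.12 in WT cells, and both calls were lost with upper-quartile factors, at 0.25 in KO and 0.16 in WT cells (edgeR adjusted p = 0.0568 and 0.199). The KO call was also lost with the libraries of the contrast alone and when KO IL-4 library 2 was dropped (edgeR adjusted p = 0.11 and 0.0507). The WT call was also lost with no low-count filter (edgeR adjusted p = 0.146) and without any 1 of the 6 WT libraries (edgeR adjusted p 0.0502 to 0.153).

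Ratios of the counts of partner chains within a library do not depend on library scaling, and they were taken as values with no test. The ratio of Ifngr1 to Ifngr2 was 0.330 to 0.478 after LPS+IFNγ, 1.21 to 1.46 after IL-4 and 1.83 to 2.11 in the 4 controls, so the 3 treatments did not overlap. Its mean was 4.84-fold lower after LPS+IFNγ and 1.52-fold lower after IL-4 than in controls. The ratio of Il10ra to Il10rb was 0.651 to 0.910 after LPS+IFNγ, 0.299 to 0.319 after IL-4 and 0.340 to 0.572 in controls. These ranges did not overlap either, and they stood in the order LPS+IFNγ, control, IL-4. The ratio of Ifnar1 to Ifnar2 was 0.981 to 1.79 after LPS+IFNγ, 1.26 to 1.46 after IL-4 and 0.966 to 1.18 in controls, and the KO LPS+IFNγ libraries spanned 0.981 to 1.43 between them. The ratio of Il4ra to Il2rg was 1.31 to 1.92 after LPS+IFNγ, 0.749 to 1.56 after IL-4 and 1.58 to 2.58 in controls. That of Il4ra to Il13ra1 was 6.76 to 10.8, 4.07 to 6.96 and 4.16 to 7.59 in the same order, with overlap between all 3 treatments. Ratios of one pair can be compared between treatments, but their absolute size also reflects transcript length.

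**Figure D3:**
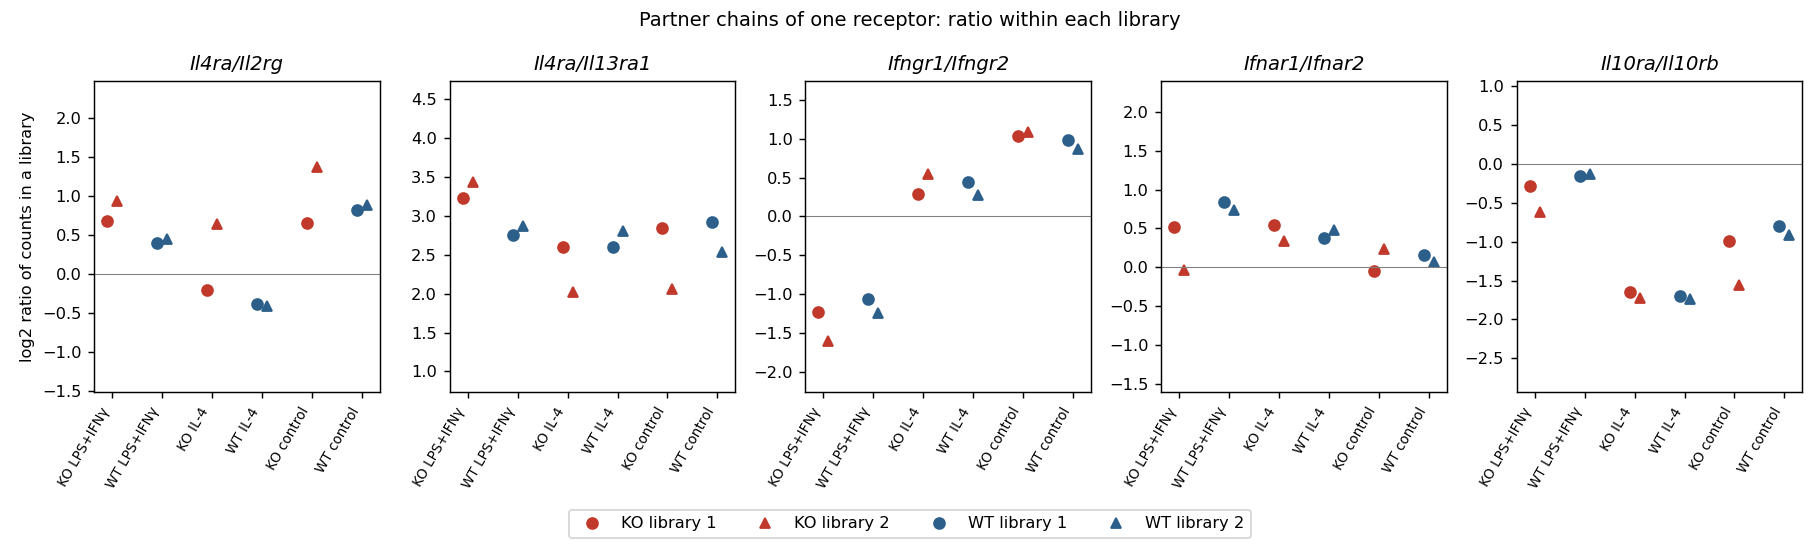
Log2 ratio of the counts of partner chains within each library (1 panel a pair), by group, with circles for library 1 and triangles for library 2. For Ifngr1/Ifngr2 the LPS+IFNγ libraries lie below 0, at ratios of 0.330 to 0.478, and all IL-4 and control libraries lie above 0.

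KO against WT was tested in each treatment and as the mean of the treatments, and the KO responses to LPS+IFNγ and IL-4 were tested against the WT responses. No member was called in any of these 6 tests. The shares of all genes called were 0.0591% after LPS+IFNγ, 0.0665% after IL-4, 0.0739% in controls, 0.17% for the mean, and 0% for both differences of response. At an unadjusted p below 0.05, edgeR gave 1 member after LPS+IFNγ, Ifnar2, where 8.27% of all genes reached that p. It gave 0 members in the 5 other tests, where the shares of all genes were 3.35% after IL-4, 7.48% in controls, 11.3% for the mean, and 3.52% and 4.47% for the differences of response to LPS+IFNγ and IL-4. DESeq2 and limma-voom likewise called 0 members. Ifnar2 was higher by 0.38 on the log2 scale in KO cells after LPS+IFNγ (95% interval 0.05 to 0.72, edgeR adjusted p = 0.582), with both KO libraries above both WT libraries. For the mean of the treatments, the 95% interval was narrowest for Il10rb (-0.07 to 0.20) and widest for Il2rg (-0.76 to 0.25), and Il4ra and Csf1r had -0.16 to 0.30 and -0.36 to 0.20. Differences within those bounds are not excluded by these data.

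**Figure D4:**
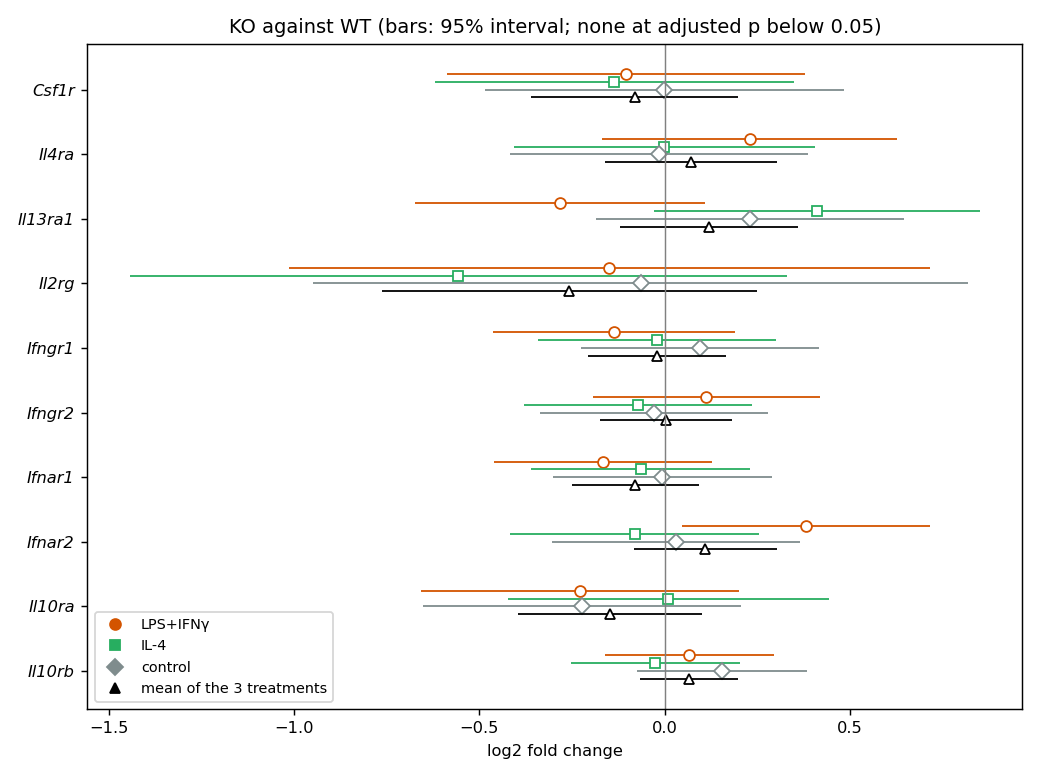
Log2 fold change of KO against WT for each chain after LPS+IFNγ, after IL-4, in controls and as the mean of the 3, with bars for the 95% interval. The mean over treatments lies between -0.26 and 0.12, and the interval of Ifnar2 after LPS+IFNγ is the 1 that does not cross 0.

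Over the 10 members, the 2 KO libraries of a group differed from each other more than the 2 WT libraries did. The mean absolute log2 difference between the 2 libraries of a group over the members was 0.27 after LPS+IFNγ, 0.32 after IL-4 and 0.42 in controls for KO, against 0.0967, 0.104 and 0.104 for WT. KO library 2 had the lower value for 8 of 10 members after LPS+IFNγ and for 9 of 10 after IL-4 and in controls. WT library 2 had the lower value for 9 of 10 members after LPS+IFNγ, 2 of 10 after IL-4 and 5 of 10 in controls. The direction after LPS+IFNγ was thus not particular to KO. The share over all genes was not counted, so a trait of the members cannot be told apart from a shift of whole libraries. The gap was largest for Il2rg in controls, at 60.6 and 23.9 CPM. Summed fibroblast and endothelial markers were 293 and 694 CPM in KO libraries 1 and 2 after LPS+IFNγ, 339 and 1341 CPM after IL-4 and 348 and 836 CPM in controls, and their part in the gap was not tested. With the 3 KO libraries numbered 1 left out, so that each KO group held 1 library assumed to vary like the WT groups, 4 members were called lower in KO for the mean of treatments, where 19.9% of all genes were called and 9.76% were called lower. These were Il2rg (-0.77), Il10ra (-0.36), Csf1r (-0.33) and Ifnar1 (-0.21 on the log2 scale, edgeR adjusted p 0.00154 to 0.0246). With the libraries numbered 2 left out instead, 0 members and 0.246% of all genes were called, so these calls rest on the KO libraries numbered 2. Il13ra1 and Il2rg are X-linked, and for them too the genotype and the sex of the cells cannot be told apart.

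Of 17 ligands of these receptors, 4 were abundant enough to test. LPS+IFNγ raised all 4 in both genotypes, where 23.7% of all genes were called higher in both. Il10 had 68.8 ± 35.5 CPM in KO and 46.9 ± 1.22 CPM in WT cells after LPS+IFNγ, against 2.13 ± 1.22 CPM in KO and 1.98 ± 0.607 CPM in WT controls (SD, n = 2 each). Il15, whose receptor uses Il2rg, rose by 4.01 in KO and 4.41 in WT cells on the log2 scale (edgeR adjusted p = 2.65e-07 and 1.52e-07), and it fell by 0.85 in KO and 0.88 in WT cells with IL-4. Csf1, which encodes M-CSF, rose by 2.79 in KO and 3.10 in WT cells (edgeR adjusted p = 0.0204 and 0.0149), with an SE of 0.85 in KO and 0.89 in WT cells. Il7 rose by 1.74 in KO and 3.01 in WT cells. Il4, Il13, Ifng, Ifna1, Ifna2, Ifna4, Ifna5, Il9 and Il21 had 0 counts in all libraries, which allows up to 0.290 CPM in the shallowest. Il34, Ifnb1, Il22 and Il2 had 26, 21, 1 and 8 counts over all libraries together.

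Of 45 other cytokine receptor chains, 33 were tested. After LPS+IFNγ 16 rose and 6 fell in KO and 14 rose and 9 fell in WT cells, with a median log2 fold change of 0.70 in KO and 0.69 in WT cells. Of all genes, 27.2% in KO and 27.4% in WT cells were called higher. The shares called lower were 26.1% in KO and 27% in WT cells, so the falls in this list were near or below them. Il23r, the IL-23-specific chain, had 12.1 ± 4.26 CPM in KO and 12.7 ± 0.383 CPM in WT cells after LPS+IFNγ and 0 counts in controls, at least 82.8-fold higher in KO and 85.7-fold higher in WT cells against 3 counts per library. Il15ra rose by 6.19 in KO and 6.32 in WT cells, and Il12rb1, which IL-12 and IL-23 receptors share, rose by 6.09 in KO and 6.02 in WT cells on the log2 scale. Lifr, Il12rb2 and Il7r fell by 4.13, 3.43 and 1.66 in KO and by 4.14, 3.69 and 1.51 in WT cells. After IL-4, 9 rose and 0 fell in KO and 8 rose and 2 fell in WT cells, led in both genotypes by Il1rl1, the IL-33 receptor, at 2.30 in KO and 3.11 in WT cells. Il11ra1 (1.77 in KO and 1.38 in WT cells) and Il1r1 (1.33 in KO and 1.60 in WT cells) also rose with IL-4. Of all genes, 6.86% in KO and 9.04% in WT cells were called with IL-4 in either direction. Called higher in both genotypes were 7 of the 33 chains and 2.45% of all genes.

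Downstream of the chains, 10 of 11 kinases and STAT factors rose with LPS+IFNγ in each genotype and none fell. Over all genes, LPS+IFNγ gave 27.2% called higher in KO and 27.4% in WT cells, and 26.1% and 27% called lower. Stat2 rose by 4.05 in KO and 4.62 in WT cells, and Jak2, the kinase bound by Ifngr2, by 3.08 in KO and 3.11 in WT cells on the log2 scale. Stat6, which carries the signal of Il4ra and was picked for that role with its values known, rose by 0.31 in KO and 0.50 in WT cells. With IL-4, Jak2 alone was called higher in both genotypes (0.82 in KO and 1.18 in WT cells), where 2.45% of all genes were. Of 18 feedback inhibitors, 8 rose and 1 fell in KO and 11 rose and 2 fell in WT cells with LPS+IFNγ, led by Socs3, Usp18 and Socs1, and Cish, Socs2 and Socs1 rose with IL-4 in both. Socs1, which blocks Janus kinases at interferon and IL-4 receptors, rose by 7.12 in KO and 6.71 in WT cells with LPS+IFNγ and by 3.60 in KO and 4.14 in WT cells with IL-4.

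Known target genes of the stimuli were counted as well. Of 32 interferon target genes tested, 31 rose with LPS+IFNγ in each genotype. The remaining 1 was called lower in WT cells and was not called in KO cells. Of 25 IL-4 target genes tested, 15 rose and 0 fell in KO and 18 rose and 1 fell in WT cells with IL-4. Of all genes, 27.2% in KO and 27.4% in WT cells were called higher with LPS+IFNγ. The shares called in either direction with IL-4 were 6.86% in KO and 9.04% in WT cells. Called higher with IL-4 in both genotypes were 15 of the 25 IL-4 targets and 2.45% of all genes. Among 25 genes that regulate or act with Csf1r, 11 rose in each genotype with LPS+IFNγ, while 6 fell in KO and 4 in WT cells. These falls were not above the shares of all genes called lower, 26.1% in KO and 27% in WT cells. Cebpb and Rhbdf2, a regulator of the protease that sheds cell-surface receptors, rose by 2.94 and 2.74 in KO and by 2.51 and 2.33 in WT cells. Cebpa, a myeloid transcription factor, fell by 1.87 in KO and 1.93 in WT cells. With IL-4, 2 of the 25 rose and 4 fell in each genotype, Maf by 1.66 in KO and 2.24 in WT cells. Of all genes, 3.34% in KO and 4.12% in WT cells were called lower with IL-4.

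Among the 5 genes whose log2 CPM followed that of Csf1r most closely over the 12 libraries were Natd1 (Pearson r = 0.96), Eps8 (0.94), Zmiz2 (0.93) and Nfam1 (0.93). Ranked by the means of the 6 groups instead, these genes took places 20, 129, 12 and 127 in the order given. Their likeness to Csf1r thus rests in part on differences between libraries of one group. For Il4ra the 5 closest genes were Nfkbia, Ehd1, Sh3bp4, Pirb and Nlrc5, with r between 0.996 and 0.998. The values for Il4ra come from libraries that fall into an LPS+IFNγ cluster and the rest, and all points share library depth and scaling, so they describe likeness and nothing more. Among the members, Il4ra followed Il13ra1 (r = 0.98), Ifnar1 (0.97) and Ifnar2 (0.97), ran against Ifngr1 (-0.88) and followed Csf1r least (0.27).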

How the data were processed

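RNA was isolated with an innuPREP kit and made into libraries with the NEBNext Ultra II directional kit, per the labels' protocols. The authors deposited estimated counts per Ensembl gene. Per the submitters' processing notes, Salmon 1.10.2, DESeq2 1.45.3, R 4.4.1 and FastQC 0.11.9 were used with build GRCm39, and whether strand was used in counting is not given in the sources used here. All deposited values were whole and were used as they stood, and 0 sample columns were left unused. In R 4.3.3, edgeR 4.0.16 was run with filterByExpr, TMM factors and 1 coefficient per group over all 12 libraries (6 residual and 3.36 prior degrees of freedom). Quasi-likelihood F tests were two-sided, with Benjamini-Hochberg adjustment over 13525 genes and a threshold of 0.05. Fold changes are log2, and 95% intervals come from the SE. The fit was also run on simulated data with the same dispersion in every group. That run does not check p-values where KO and WT libraries differ in spread. CPM per kb used GENCODE M21 exon lengths (GRCm38). A count of 0 was set against 3 counts, which was 0.138 to 0.290 CPM and covers counting error only. Alternatives were other scalings, filters, DESeq2 1.42.0, limma-voom (limma 3.58.1), the libraries of a contrast alone, replicate blocks and libraries left out. The 10 members and all gene lists were chosen with earlier results of these data known. All members were named, from each list up to 3 genes per direction with the largest changes called in both genotypes, all ligands, and the 5 genes most like Csf1r and Il4ra. Of the genes these rules name, 2 are not reported here.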

Additional observations from a re-analysis of the deposited data

How the results depend on the processing

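Of 3320 member values under alternatives, 3047 kept their sign and their side of the threshold, 59 lost a call and 55 gained one. Another 154, over 48 comparisons of a member, changed sign but were called neither before nor after, at a median size of 0.042 on the log2 scale. The largest of these was Il2rg without KO control library 1, at 0.74 for the difference of LPS+IFNγ responses. Sign changes of values called on at least 1 side came to 5. These are Il10rb with library totals alone, at -0.40 in KO and -0.31 in WT cells for LPS+IFNγ against control, -0.36 for the mean of genotypes, and against IL-4 -0.074 (KO) and -0.12 (WT). That scaling leaves out the TMM factors, 0.756 to 0.833 after LPS+IFNγ and 1.09 to 1.16 elsewhere, which shifts all LPS+IFNγ contrasts downward together. With it, LPS+IFNγ against control gave 9 members in KO (6 higher, 3 lower) and 7 in WT cells (5 higher, 2 lower). The libraries of the contrast alone gave 7 in KO and 9 in WT cells. Against IL-4, the 9 of each genotype became 8 in KO and 7 in WT cells with library totals alone. They were 8 in each with upper-quartile factors, 8 in WT cells with no low-count filter and 8 in KO cells with the libraries of the contrast alone. The count of 8 members for LPS+IFNγ against control was 8 without any single library. For IL-4 against control in KO cells the count of 2 was 1 with library totals alone, 4 with DESeq2, 0 with the libraries of the contrast alone and 5 without the KO libraries numbered 2 (chosen after seeing the data), where 6.6%, 13.5%, 0.0637% and 13.1% of all genes were called in the same order, and 0 to 3 without single libraries. In WT cells the count of 3 was 7 with the libraries of the contrast alone, 6 without the KO libraries numbered 2, 7 without those numbered 1, where 27.9%, 25.6% and 24.8% of all genes were called, and 0 to 3 without single libraries. For the mean of genotypes the 5 were 8 without the KO libraries numbered 2 (29.2% of all genes) and 3 to 7 without single libraries. For KO against WT, 0 members became 3 after LPS+IFNγ, 2 after IL-4, 2 in controls, 4 for the mean and 1 for the difference of LPS+IFNγ responses (Ifnar2) without the KO libraries numbered 1, where 13.8%, 6.71%, 8.2%, 19.9% and 4.56% of all genes were called in the same order, and stayed at 0 without those numbered 2. The libraries left alone in a group were assumed to vary like the others.

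The library numbers were not established to pair libraries, since only 2 numbers exist. Of 15 pairs of groups, 14 had deviations correlated above 0.1. With a replicate block the counts were 8 and 8 for LPS+IFNγ, 2 and 3 for IL-4 and 9 and 9 for LPS+IFNγ against IL-4 in KO and WT cells, as without it, and 0 for KO against WT. The planned protein search was not run.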
